A study of Mus musculus with 10 samples.

Results

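Axin2:Pdgfra cells of the adult mouse lung mesenchyme, which carried both an Axin2 lineage label and a Pdgfra label, were compared with Axin2 cells, which carried the Axin2 label alone. Both groups were sorted by FACS from mice of the genotype Axin2CreERT2:tdT:PdgfraEGFP, and each was profiled by RNA-seq in 2 libraries, so that the comparison used 4 of the 10 libraries of the study. Of 14854 genes, the 14177 with a log2 value of 6 or more in at least 2 of the 10 libraries were tested. The study's other libraries came from Pdgfra cells (label of Pdgfra alone), Negative cells (neither label) and Wnt2 cells, 2 libraries each. Pdgfra and Negative cells were of the same genotype, and Wnt2 cells came from Wnt2CreERT2:R26REFYP mice. CreERT2 is a tamoxifen-dependent recombinase, here driven by Axin2, that switches on the red tdT reporter in cells using the driver gene and in their descendants, while EGFP reports Pdgfra itself. The Axin2 label therefore marks a history of Axin2 use, and the tamoxifen schedule is not given in the sources used here. Every group of the first genotype therefore carried all 3 alleles, and the groups differed in which reporters were seen in the sorter. Nothing in the labels ties the 2 libraries of a group to separate animals or pools, so a p-value below reflects the spread between samples that may be technical repeats.

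Mural cells, the pericytes of capillaries and the smooth muscle cells of larger vessels and airways, hold Pdgfrb and answer to platelet-derived growth factor B from the endothelium, to Notch ligands and to nitric oxide. Fibroblasts of the alveolar wall and of the connective tissue around bronchi and vessels carry Pdgfra, make fibrillar and elastic matrix and secrete growth factors that act on the epithelium. Axin2 is a feedback inhibitor and a widely used reporter of canonical Wnt signalling, which is active in more than a single mesenchymal cell type of the lung.

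The values below are log2 levels, in which 1 unit is a 2-fold step. This scale was inferred from the values, and levels of different genes cannot be compared because they are not per length. Each library shared its lowest value among many genes: 8.63% and 15.0% of the genes in the Axin2:Pdgfra libraries, against 8.09% and 9.75% in the Axin2 libraries. A gene with this value is said to stand at the floor, and no difference is printed where both libraries of a group were listed there. Spearman correlations across genes were 0.816 between the Axin2:Pdgfra libraries, 0.866 between the Axin2 libraries and 0.762 to 0.803 between libraries of the 2 groups. Counts are not part of the files, and the depth behind a value is unknown. Differences are Axin2:Pdgfra minus Axin2 with the standard error (± SE) of a limma model over all 10 libraries, and an adjusted p is Benjamini-Hochberg adjusted over all 14177 genes.

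In Axin2:Pdgfra cells 131 genes were higher and 195 lower than in Axin2 cells at an adjusted p under 0.05, which is 0.924% and 1.38% of the genes tested and 2.3% in all. The median of the higher genes was 2.34 and that of the lower genes was -3.89, beside a median of 0.02 over all genes tested. In all 326 called genes the libraries of the 2 groups did not overlap, as in 42.5% of all genes tested. Without adjustment, 2004 of the 14177 genes had a p under 0.05 between Axin2:Pdgfra and Axin2 cells (limma). That is 14.1% of the genes tested, with higher and lower genes counted in the same share. List counts at an unadjusted p below are to be read beside this share. Genes of pericytes, of contraction and of nitric oxide signalling were among the lower calls, and Lum, Dcn, some elastic fibre genes, Il6 and Hhip were among the higher ones. The counts moved with single libraries: leaving out library 1 of Axin2:Pdgfra left 47 higher and 188 lower genes, and leaving out library 2 left 30 and 115. Leaving out library 1 of Axin2 left 53 higher and 46 lower genes, and library 2 left 13 and 22. Of the 326 genes, 27 were called whichever of the 10 libraries was left out, 6 of them higher and 21 lower. Below, a call said to end without a library no longer passed when that library alone was left out, and "either" or "any" means each of the libraries on its own. Axin2:Pdgfra library 1 carried another second sequencing index than the other 3 libraries compared, and with the index as a term 230 genes were called, 87 higher and 143 lower.

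**Figure D1:**
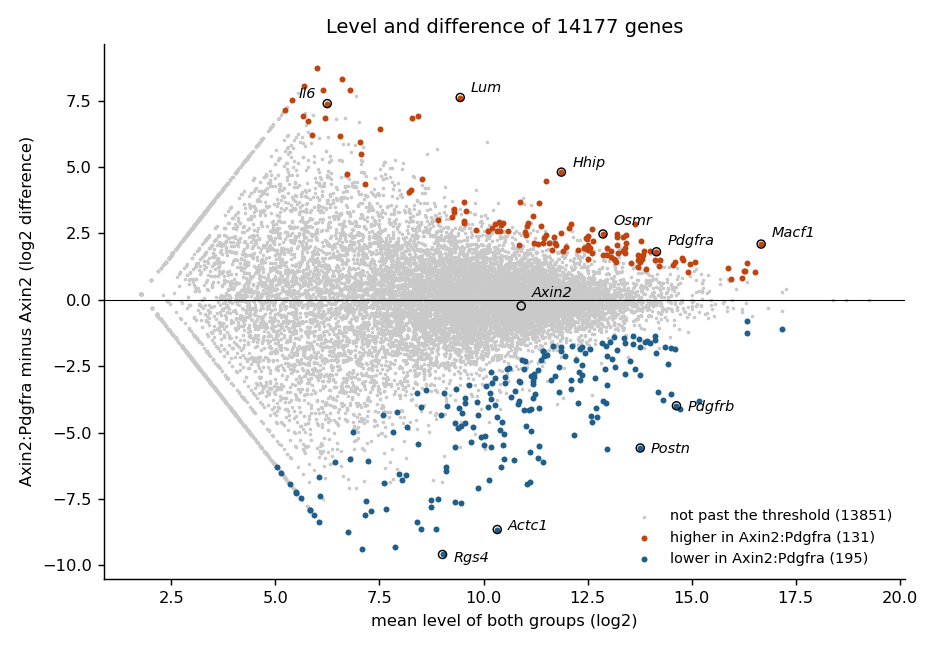
Difference between Axin2:Pdgfra and Axin2 cells (vertical axis, log2, above 0 means higher in Axin2:Pdgfra) against the mean level of both groups (horizontal axis, log2) for 14177 genes. Orange points are the 131 genes called higher, blue points the 195 called lower and grey points all others; lower calls reach further from 0 than higher ones, with medians of -3.89 and 2.34.

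Pdgfra, the receptor gene that carries the EGFP reporter, had 14.91 and 15.21 in the Axin2:Pdgfra libraries, against 13.49 and 13.0 in the Axin2 libraries. Both Axin2:Pdgfra libraries lay above both Axin2 libraries, a difference of 1.81 ± 0.36 (adjusted p = 0.0177), and Pdgfra was well above the lowest value in the cells without the label too. Axin2 itself had 12.04 and 9.54 in Axin2:Pdgfra cells and 10.47 and 11.57 in Axin2 cells; the groups overlapped (-0.23 ± 0.74, adjusted p = 0.953, 95% interval -1.82 to 1.37). Pdgfrb, the second receptor of the family and a pericyte marker, had 12.61 and 12.67 in Axin2:Pdgfra libraries, against 16.32 and 16.94 in Axin2 libraries, a difference of -3.99 ± 0.31 (adjusted p = 1.69e-05). Pdgfa, a ligand that binds the Pdgfra receptor, had 7.37 and 8.03 in Axin2:Pdgfra libraries and 11.85 and 12.2 in Axin2 libraries, a difference of -4.32 ± 0.68 (adjusted p = 0.00422). The ligand genes Pdgfb, Pdgfc and Pdgfd did not pass the threshold, at 1.71 ± 1.03, 4.25 ± 2.32 and 1.14 ± 1.51 (adjusted p = 0.514, 0.451 and 0.826). The receptor with the label was thus higher while the other receptor and a ligand were lower. Pdgfrb stayed past the threshold with any 1 of the 10 libraries left out (adjusted p up to 0.00253). The call of Pdgfa ended without Axin2 library 2, and that of Pdgfra without any of the 4 libraries compared (adjusted p up to 0.201).

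Pericyte markers fell together in Axin2:Pdgfra cells: 18 of 25 were lower and 0 higher (limma; 21 lower and 0 higher at an unadjusted p under 0.05), with a list median of -4.6. In RNA of sorted cells, fewer cells of a type and less RNA per cell cannot be told apart. Rgs4, which shortens signalling through G-protein-coupled receptors, had 3.36 and 5.08 in Axin2:Pdgfra libraries, against 13.87 and 13.75 in Axin2 libraries. Its difference of -9.59 ± 0.95 was the largest in size of the 18 (adjusted p = 0.000119). Cspg4, the NG2 proteoglycan used to mark pericytes, had 7.26 and 9.49 in Axin2:Pdgfra libraries and 14.24 and 14.74 in Axin2 libraries (-6.11 ± 0.79, adjusted p = 0.0012). Mcam, the adhesion molecule CD146, had 8.72 and 10.54 in Axin2:Pdgfra libraries, against 14.61 and 14.81 in Axin2 libraries (-5.08 ± 0.52, adjusted p = 0.000153). For all 3 genes every Axin2:Pdgfra library was below every Axin2 library, as for every gene called lower. Their Axin2 libraries lay closer together than their Axin2:Pdgfra libraries. Higd1b and Cox4i2, mitochondrial proteins rich in pericytes, differed by -8.36 ± 1.15 (adjusted p = 0.00193) and -7.66 ± 1.19 (adjusted p = 0.004). Pdzd2, a PDZ domain protein, had 13.43 and 13.11 in Axin2:Pdgfra libraries and 16.85 and 17.32 in Axin2 libraries (-3.82 ± 0.3, adjusted p = 1.69e-05). Vtn, the adhesive plasma protein vitronectin, and Ebf1, a transcription factor of pericyte development, differed by -7.08 ± 1.37 (adjusted p = 0.0146) and -5.53 ± 0.89 (adjusted p = 0.00477).

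Not all pericyte genes followed. Kcnj8, the pore of a potassium channel of pericytes, had 12.5 and 12.29 in Axin2:Pdgfra libraries, against 11.65 and 10.84 in Axin2 libraries. Its Axin2:Pdgfra values lay above its Axin2 values without passing the threshold (1.15 ± 1.08, adjusted p = 0.729, 95% interval -1.18 to 3.47). Abcc9, the sulfonylurea receptor of the same channel, had 13.2 and 11.93 in Axin2:Pdgfra libraries, against 12.45 and 12.06 in Axin2 libraries, and the groups overlapped (0.32 ± 0.7, adjusted p = 0.919, 95% interval -1.18 to 1.81). With 1 library left out at a time, the count of lower pericyte genes was 9 to 19 of 25 and the list median -4.69 to -4.02. That count was 14 and 17 without library 1 or 2 of Axin2:Pdgfra, and 12 and 9 without library 1 or 2 of Axin2. Rgs4, Cspg4, Mcam and Pdzd2 stayed past the threshold with any 1 of the 10 libraries left out (adjusted p up to 0.0425). The calls of Higd1b and Cox4i2 ended without Axin2 library 2, that of Ebf1 without either Axin2 library, and that of Vtn without Axin2:Pdgfra library 1 or either Axin2 library (adjusted p up to 0.184).

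**Figure D2:**
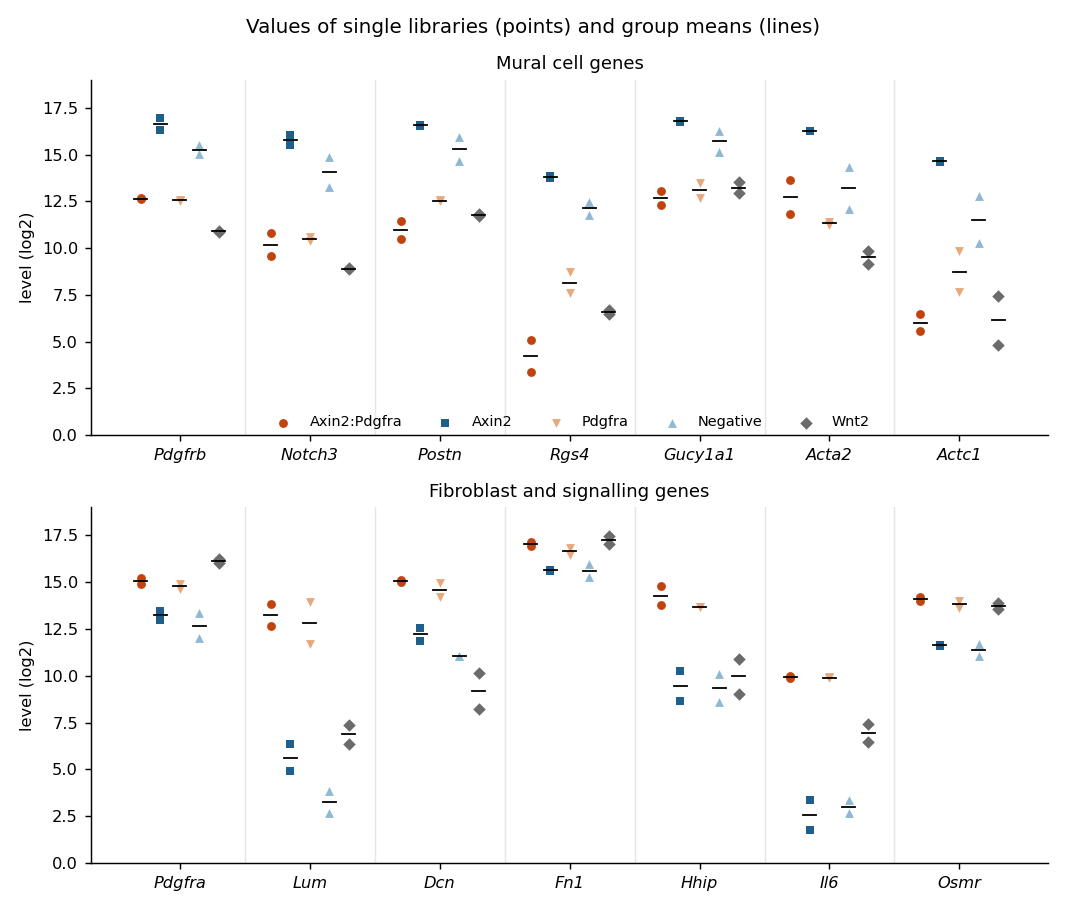
Level (vertical axis, log2) of 7 mural cell genes (top) and 7 fibroblast and signalling genes (bottom) in each library; points are single libraries, coloured and shaped by group, and short lines are the means of the 2 libraries of a group. The Axin2:Pdgfra libraries lie below the Axin2 libraries for each mural cell gene shown and over them for each of the other 7. All genes shown were picked from the called genes, in which the groups never overlap. The uncalled pericyte genes Kcnj8 and Abcc9 are not shown. Rgs4 reads 3.36 and 5.08 in Axin2:Pdgfra and 13.87 and 13.75 in Axin2.

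Contractile genes were lower as well. Of 27 smooth muscle genes 6 were lower and 0 higher (limma; 19 lower and 0 higher at unadjusted p under 0.05), with a median of -2.16. Actc1, an actin of heart that other muscle cells also make, had 6.47 and 5.55 in Axin2:Pdgfra libraries, against 14.68 and 14.62 in Axin2 libraries (-8.65 ± 1.11, adjusted p = 0.0012). Acta2, smooth muscle actin, had 13.65 and 11.8 in Axin2:Pdgfra libraries and 16.28 and 16.25 in Axin2 libraries (-3.54 ± 0.66, adjusted p = 0.0114). Myh11, the heavy chain of smooth muscle myosin, had 11.57 and 10.35 in Axin2:Pdgfra libraries and 14.81 and 14.72 in Axin2 libraries (-3.81 ± 0.77, adjusted p = 0.0186). The Axin2 libraries agreed closely for all 3 genes, and the spread was in the Axin2:Pdgfra libraries. Cnn1 (calponin), Tpm2 (a tropomyosin) and Des (desmin, also in the pericyte list) differed by -5.98 ± 1.28 (adjusted p = 0.0272), -3.02 ± 0.71 (adjusted p = 0.0411) and -2.93 ± 0.46 (adjusted p = 0.00411). Tpm1, another tropomyosin, stopped just short of the threshold at -1.47 ± 0.36 (adjusted p = 0.0505), and Mylk, the kinase that activates myosin, was at -0.34 ± 0.21 (adjusted p = 0.537). Between 1 and 9 smooth muscle genes were called lower with a library left out: 6 and 3 without library 1 or 2 of Axin2:Pdgfra, and 2 and 1 without library 1 or 2 of Axin2. Actc1 stayed past the threshold with any 1 of the 10 libraries left out (adjusted p up to 0.04). The call of Des ended without Axin2 library 2, those of Acta2, Myh11 and Cnn1 without Axin2:Pdgfra library 2 or either Axin2 library, and that of Tpm2 without Axin2:Pdgfra library 1, either Axin2 library, either Pdgfra library or either Wnt2 library (adjusted p up to 0.293).

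Contractile genes and immediate early genes are textbook targets of serum response factor, which binds a sequence named the CArG box. The promoters of a lower contractile gene (Actc1), a lower channel gene of the pericyte list (Trpc6) and a higher immediate early gene (Zfp36) are shown because each holds an exact CArG box, printed in capitals. The sequences are the 250 bases before the gene start in RefSeq, GRCm38.p6, 5′ to 3′ on the strand of the gene: chr2:114052876-114053125 (minus strand), chr9:8543892-8544141 (plus strand) and chr7:28379229-28379478 (minus strand). The box begins at positions -47, -122 and -58 from the start.
Actc1: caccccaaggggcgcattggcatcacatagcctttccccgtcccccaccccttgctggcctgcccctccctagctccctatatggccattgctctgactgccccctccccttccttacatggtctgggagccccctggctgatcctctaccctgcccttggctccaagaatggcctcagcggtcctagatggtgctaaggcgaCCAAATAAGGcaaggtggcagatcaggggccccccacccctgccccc
Trpc6: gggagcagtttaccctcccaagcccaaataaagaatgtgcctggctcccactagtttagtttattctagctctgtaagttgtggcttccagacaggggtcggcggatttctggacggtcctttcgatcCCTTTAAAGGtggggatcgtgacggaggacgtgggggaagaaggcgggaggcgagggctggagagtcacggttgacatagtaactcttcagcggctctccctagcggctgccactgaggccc
Zfp36: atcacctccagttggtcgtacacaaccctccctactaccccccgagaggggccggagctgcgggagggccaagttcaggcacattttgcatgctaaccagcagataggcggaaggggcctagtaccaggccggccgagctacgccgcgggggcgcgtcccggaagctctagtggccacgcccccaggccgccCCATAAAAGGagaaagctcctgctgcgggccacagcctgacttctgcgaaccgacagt
The window searched ran 250 bases before to 50 bases after the start, and since the CArG box is the same class of sequence on both strands, a search of 1 strand covers both. It was found in 7 of the 147 genes called lower that had a window (4.76%), 3 of the 85 called higher (3.53%) and 168 of the 10344 tested genes with a window (1.62%). In the smooth muscle list 5 of 22 held it (22.7%), of which only Actc1 passed the threshold. A match describes the letters of the window and is not a measured binding site.

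Nitric oxide relaxes mural cells through soluble guanylate cyclase, whose product cyclic GMP is broken down by phosphodiesterases. Of 23 genes of cyclic nucleotide signalling 6 were lower and 0 higher (limma; 9 lower and 2 higher at unadjusted p under 0.05; median -1.46). All 3 subunits of the cyclase measured were among them. Gucy1a1 had 13.03 and 12.28 in Axin2:Pdgfra libraries and 16.74 and 16.8 in Axin2 libraries (-4.12 ± 0.39, adjusted p = 0.000115). Gucy1b1, its partner in the enzyme, had 10.98 and 9.65 in Axin2:Pdgfra libraries, against 14.82 and 15.01 in Axin2 libraries (-4.6 ± 0.59, adjusted p = 0.0012), and Gucy1a2 differed by -4.79 ± 0.8 (adjusted p = 0.00626). The groups were far apart for each subunit. Pde5a, the phosphodiesterase that degrades cyclic GMP, had 12.68 and 12.17 in Axin2:Pdgfra libraries and 16.14 and 16.28 in Axin2 libraries (-3.78 ± 0.42, adjusted p = 0.000289). Pde3a, which degrades cyclic AMP, and Adcy8, an adenylate cyclase that makes it, differed by -4.15 ± 0.82 (adjusted p = 0.0159) and -6.87 ± 0.75 (adjusted p = 0.000283). Adcy8 had 7.45 and 7.89 in Axin2:Pdgfra libraries and 14.27 and 14.8 in Axin2 libraries. Gucy1a1, Gucy1b1, Pde5a and Adcy8 stayed past the threshold with any 1 of the 10 libraries left out (adjusted p up to 0.0384). The call of Gucy1a2 ended without either Axin2 library, and that of Pde3a without Axin2:Pdgfra library 2 or either Axin2 library (adjusted p up to 0.169).

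Among channels and receptors the calls went both ways. Of 26 vasoactive receptors and regulators of G-protein signalling, 3 were lower and 2 higher (median -0.48). P2rx1, an ATP-gated channel of smooth muscle, stood at the floor of both Axin2:Pdgfra libraries and had 9.12 and 9.1 in the Axin2 libraries (adjusted p = 0.0485). Adra1a, an adrenergic receptor that contracts smooth muscle, was higher and had 12.53 and 11.1 in Axin2:Pdgfra libraries, against 9.5 and 8.54 in Axin2 libraries (2.8 ± 0.65, adjusted p = 0.0391). Of 21 potassium channel genes 3 were lower (median 0.3): Kcnmb1, the regulatory subunit of the calcium-activated channel of smooth muscle, Kcnk3, a background channel, and Kcnq5, a voltage-gated channel (-5.55 ± 1.27, adjusted p = 0.0375). Kcnk3 had 8.85 and 8.43 in Axin2:Pdgfra libraries and 13.44 and 13.34 in Axin2 libraries (-4.75 ± 0.67, adjusted p = 0.00217). Kcnmb1 had 2.7 and 2.06 in Axin2:Pdgfra libraries, of which the second is the lowest value, and 11.69 and 11.83 in Axin2 libraries (adjusted p = 0.0153). Both Axin2:Pdgfra values lie at or near the floor of the scale, far below the Axin2 values.

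Of the 28 calcium, sodium, chloride and TRP channel genes tested, 3 were lower and 2 higher (median -0.13). Pore genes of L-type calcium channels moved apart. Cacna1c, the form that drives contraction of smooth muscle, had 11.53 and 11.42 in Axin2:Pdgfra libraries and 13.26 and 13.28 in Axin2 libraries (-1.79 ± 0.39, adjusted p = 0.0308), whereas Cacna1d had 13.05 and 13.98 in Axin2:Pdgfra libraries, against 10.75 and 10.59 in Axin2 libraries (2.84 ± 0.39, adjusted p = 0.00193). Neither gene overlapped between the groups, which holds for every called gene. Trpc6, a cation channel opened by diacylglycerol, differed by -8.62 ± 1.58 (adjusted p = 0.0107), with 2.7 and 6.38 in Axin2:Pdgfra and 13.12 and 13.2 in Axin2 libraries. Itpr2, which releases stored calcium, was lower and Scn7a, a sodium channel relative that senses sodium, higher (-2.79 ± 0.48, adjusted p = 0.00654 and 1.3 ± 0.3, adjusted p = 0.0382). Of 21 gap junction and cadherin genes 5 were lower and 2 higher (median -0.71). The connexins Gja4 and Gjc1, which couple mural cells, were lower (-3.53 ± 0.6, adjusted p = 0.00675 and -5.05 ± 0.85, adjusted p = 0.00633), and Cdh11, a cadherin of fibroblasts, was higher, at 14.67 and 14.4 in Axin2:Pdgfra and 12.41 and 11.96 in Axin2 libraries (2.35 ± 0.34, adjusted p = 0.0025). The protocadherin gene Pcdh1 had 11.25 and 10.73 in Axin2:Pdgfra libraries, against 14.66 and 15.1 in Axin2 libraries (-3.89 ± 0.36, adjusted p = 8.17e-05), and Pcdh18, of the same family, differed by -4.4 ± 0.52 (adjusted p = 0.000669). Of the large FAT cadherins, Fat1 was lower and Fat3 higher (-2.59 ± 0.39, adjusted p = 0.00296 and 2.69 ± 0.39, adjusted p = 0.0025).

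The calls of this and the preceding group of genes held to different degrees with a library left out. Cacna1d, Pcdh1, Pcdh18 and Fat3 stayed past the threshold with any 1 of the 10 libraries left out (adjusted p up to 0.0386). The calls of Kcnk3, Cdh11 and Fat1 ended without Axin2 library 2, those of Itpr2, Gja4 and Gjc1 without either Axin2 library, and that of Kcnmb1 without Axin2:Pdgfra library 2 or either Axin2 library (adjusted p up to 0.161). The call of Trpc6 ended without Axin2:Pdgfra library 1 or either Axin2 library, that of Adra1a without Axin2:Pdgfra library 1, either Axin2 library, Pdgfra library 2 or either Wnt2 library, and those of Kcnq5 and Cacna1c without any of the 4 libraries compared or either Wnt2 library (adjusted p up to 0.309). The call of Scn7a ended without either Axin2:Pdgfra library, Axin2 library 2, either Pdgfra library or either Wnt2 library, and that of P2rx1 without any library other than those of Negative cells (adjusted p up to 0.342).

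Notch3 is the Notch receptor of mural cells, and Hey1 and Nrarp are among its targets. Of 18 Notch pathway genes 3 were lower and 0 higher (limma; 8 lower and 0 higher at unadjusted p under 0.05), with a median of -1.68. Notch3 had 10.79 and 9.56 in Axin2:Pdgfra libraries and 15.5 and 16.05 in Axin2 libraries (-5.61 ± 0.55, adjusted p = 0.000119). Nrarp, a feedback inhibitor of the pathway, had 7.83 and 6.74 in Axin2:Pdgfra libraries, against 12.52 and 12.97 in Axin2 libraries (-5.46 ± 1.01, adjusted p = 0.0112). Hey1, a repressor induced by Notch, had 7.21 and 5.77 in Axin2:Pdgfra libraries, against 11.45 and 9.6 in Axin2 libraries (-4.04 ± 0.84, adjusted p = 0.0233). Receptor and targets were thus lower in both Axin2:Pdgfra libraries. Notch1 and Heyl did not pass (-1.55 ± 0.39, adjusted p = 0.0568 and -1.81 ± 0.46, adjusted p = 0.057). Notch3 stayed past the threshold with any 1 of the 10 libraries left out (adjusted p up to 0.0111). The calls of Nrarp and Hey1 ended without Axin2:Pdgfra library 2 or either Axin2 library (adjusted p up to 0.235).

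The collagen genes that passed the threshold were all lower. Over all genes tested, 1.38% were called lower and 0.924% higher. Of 30 collagen genes 3 were lower and 0 higher (limma; 5 lower and 10 higher at unadjusted p under 0.05; median 0.55). The lower genes were Col4a1 and Col4a2, paired chains of a basement membrane collagen, and Col8a1, a short-chain collagen of vessel walls (-4.06 ± 0.98, adjusted p = 0.0468). Col4a1 had 13.67 and 13.5 in Axin2:Pdgfra libraries and 15.3 and 15.53 in Axin2 libraries (-1.83 ± 0.25, adjusted p = 0.00175), and Col4a2 had 13.62 and 13.73 in Axin2:Pdgfra libraries, against 15.45 and 15.64 in Axin2 libraries (-1.87 ± 0.25, adjusted p = 0.00179). Both chains differed by nearly the same amount, and Col4a3, Col4a4, Col4a5, Col4a6, Col15a1 and Col18a1, further collagen genes of basement membranes, did not pass. The fibrillar collagen genes Col1a2 and Col3a1 did not pass, at 0.89 ± 0.27 (adjusted p = 0.116) and 1.17 ± 0.38 (adjusted p = 0.144), with 95% intervals of 0.31 to 1.47 and 0.35 to 1.98. Of the basement membrane linkers, Nid2 (nidogen) was lower (-4.84 ± 0.92, adjusted p = 0.013), while Hspg2 (perlecan) was short of the threshold (-1.2 ± 0.31, adjusted p = 0.0622) and 0 of 11 laminin genes passed (limma; 1 lower and 0 higher at unadjusted p under 0.05; median -0.39). Postn, a matricellular protein of myofibroblasts, had 11.44 and 10.5 in Axin2:Pdgfra libraries and 16.58 and 16.53 in Axin2 libraries (-5.58 ± 0.4, adjusted p = 1.69e-05). Spp1 (osteopontin) had 1.7 and 4.74 in Axin2:Pdgfra libraries, the first at the lowest value, and 13.54 and 11.49 in Axin2 libraries (adjusted p = 0.0134). Sdc3, a syndecan proteoglycan, differed by -4.36 ± 0.45 (adjusted p = 0.000153). Postn and Sdc3 stayed past the threshold with any 1 of the 10 libraries left out (adjusted p up to 0.0117). The calls of Col4a1 and Col4a2 ended without Axin2 library 2, that of Nid2 without Axin2:Pdgfra library 2 or either Axin2 library, and that of Spp1 without Axin2:Pdgfra library 1 or either Axin2 library (adjusted p up to 0.177). The call of Col8a1 ended without any library other than those of Negative cells (adjusted p up to 0.291).

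Some matrix genes of fibroblasts were higher in Axin2:Pdgfra cells. Of 11 small leucine-rich proteoglycans 2 were higher and 0 lower (limma; 5 higher and 1 lower at unadjusted p under 0.05; median 1.04), and of 25 other proteoglycan and hyaluronan genes 0 were higher and 2 lower, Cspg4 and Sdc3 (limma; 3 higher and 5 lower at unadjusted p under 0.05; median -0.41). Lum (lumican), which spaces collagen fibrils, had 13.84 and 12.65 in Axin2:Pdgfra libraries and 4.91 and 6.35 in Axin2 libraries (7.62 ± 1.19, adjusted p = 0.00411). Dcn (decorin) had 15.14 and 15.0 in Axin2:Pdgfra libraries and 12.55 and 11.88 in Axin2 libraries (2.86 ± 0.54, adjusted p = 0.0123). The family was not uniform, since Bgn (biglycan) had 17.13 and 16.8 in Axin2:Pdgfra libraries, against 17.32 and 17.47 in Axin2 libraries (-0.43 ± 0.18, adjusted p = 0.295). Prelp, another member, did not pass either (0.28 ± 0.2, adjusted p = 0.619). Of 19 elastic fibre genes 5 were higher and 1 lower (median 0.77), with 1 and 2 higher without library 1 or 2 of Axin2:Pdgfra and 0 without either library of Axin2. Fbln1 (fibulin), which binds elastin, had 14.52 and 14.45 in Axin2:Pdgfra and 12.32 and 12.39 in Axin2 libraries (2.13 ± 0.36, adjusted p = 0.00654). Mfap5, a microfibril protein, had 13.71 and 13.71 in Axin2:Pdgfra libraries, against 11.7 and 10.88 in Axin2 libraries (2.42 ± 0.49, adjusted p = 0.02), and Efemp1, another fibulin, differed by 1.76 ± 0.33 (adjusted p = 0.013). Of the latent TGF-beta binding proteins Ltbp1 was higher and Ltbp2 lower, and Ltbp3 and Ltbp4 did not pass. Ltbp1 had 14.97 and 14.73 in Axin2:Pdgfra libraries, against 13.74 and 13.44 in Axin2 libraries (1.26 ± 0.3, adjusted p = 0.0436), while Ltbp2 had 12.42 and 12.51 in Axin2:Pdgfra libraries, against 15.47 and 16.39 in Axin2 libraries (-3.47 ± 0.45, adjusted p = 0.0012). Lox, which cross-links collagen and elastin, had 13.92 and 14.86 in Axin2:Pdgfra libraries and 12.65 and 11.42 in Axin2 libraries (2.35 ± 0.43, adjusted p = 0.00977). Fn1 (fibronectin) differed by 1.39 ± 0.23 (adjusted p = 0.00629) and Mmp2, a gelatinase, by 2.21 ± 0.37 (adjusted p = 0.00654). The call of Ltbp2 ended without Axin2 library 2, that of Lum without Axin2:Pdgfra library 1, and those of Fbln1 and Mmp2 without either Axin2 library (adjusted p up to 0.0835). The call of Lox ended without Axin2:Pdgfra library 2 or Axin2 library 2, that of Efemp1 without Axin2:Pdgfra library 1 or either Axin2 library, and that of Fn1 without Axin2:Pdgfra library 2 or either Axin2 library (adjusted p up to 0.162). The calls of Dcn and Mfap5 ended without any of the 4 libraries compared, and that of Ltbp1 without any library other than those of Negative cells (adjusted p up to 0.293).

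Cells bind these proteins through integrins, of which 3 of 21 were lower and 2 higher (median -1.03). Itga1, a receptor chain for collagen and laminin, had 11.56 and 9.77 in Axin2:Pdgfra libraries, against 14.68 and 14.79 in Axin2 libraries (-4.07 ± 0.53, adjusted p = 0.00129), and Itga4 and Itga3, further alpha chains, differed by -6.31 ± 1.0 (adjusted p = 0.00445) and -2.92 ± 0.56 (adjusted p = 0.0137). Itga8, a receptor for nephronectin and fibronectin that marks alveolar fibroblasts, had 15.74 and 15.85 in Axin2:Pdgfra libraries and 14.57 and 14.16 in Axin2 libraries (1.43 ± 0.26, adjusted p = 0.00977), and Itga9 differed by 1.78 ± 0.34 (adjusted p = 0.0134). The ligand of Itga8, Npnt, did not pass (0.72 ± 0.21, adjusted p = 0.099). Of 32 cytoskeletal linkers 7 were lower and 1 higher (median -0.54). The lower count was 3 and 4 without library 1 or 2 of Axin2:Pdgfra, and 1 and 0 without library 1 or 2 of Axin2. The lower genes included Flna, which cross-links actin, and Myh9, a non-muscle myosin (-1.25 ± 0.25, adjusted p = 0.017 and -1.76 ± 0.27, adjusted p = 0.00411). Macf1, which links actin to microtubules, was higher (2.1 ± 0.18, adjusted p = 3.41e-05), at 17.72 and 17.72 in Axin2:Pdgfra libraries and 15.74 and 15.49 in Axin2 libraries. Macf1 lies near the top of the scale, and the libraries, whose distributions were near-identical, can share values there as at other levels. Itga1 and Macf1 stayed past the threshold with any 1 of the 10 libraries left out (adjusted p up to 0.0384). The call of Myh9 ended without Axin2 library 2, that of Itga4 without either Axin2 library, and that of Itga8 without Axin2:Pdgfra library 2 or Axin2 library 2 (adjusted p up to 0.162). The calls of Itga3 and Flna ended without Axin2:Pdgfra library 1 or either Axin2 library, and that of Itga9 without any of the 4 libraries compared (adjusted p up to 0.215).

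Some markers of both main fibroblast types were higher. Of 30 adventitial fibroblast genes 8 were higher and 1 lower (limma; 17 higher and 1 lower at unadjusted p under 0.05), with a median of 1.65. Of 31 alveolar fibroblast and lipofibroblast genes 7 were higher and 0 lower (18 and 0 at unadjusted p under 0.05), with a median of 1.16. Scara5, a ferritin receptor of adventitial cells, had 11.29 and 12.12 in Axin2:Pdgfra libraries and 4.91 and 4.83 in Axin2 libraries (6.83 ± 1.67, adjusted p = 0.0488), and Serpinf1, an inhibitor of vessel growth, had 13.97 and 13.51 in Axin2:Pdgfra libraries, against 9.52 and 8.99 in Axin2 libraries (4.49 ± 1.0, adjusted p = 0.0333). Slc27a6, a fatty acid transporter of the alveolar list, had 8.91 and 10.71 in Axin2:Pdgfra libraries and 4.91 and 3.7 in Axin2 libraries (5.51 ± 1.3, adjusted p = 0.042). Scube2, a secreted partner of Hedgehog proteins, and Vegfd, a growth factor of lymphatic vessels, differed by 1.84 ± 0.43 (adjusted p = 0.0406) and 1.76 ± 0.35 (adjusted p = 0.0159), and Spon1, a matrix protein, by 1.49 ± 0.34 (adjusted p = 0.0337). All 6 genes had both Axin2:Pdgfra libraries above both Axin2 libraries, as had every gene called higher. The lower gene of the adventitial list was Anxa3, with a difference of -4.26 (limma, adjusted p = 0.00563). That difference was -4.88 to -3.64 with a library left out. Other members stayed short of the threshold, such as Dpt (0.55 ± 0.33, adjusted p = 0.513), Inmt (0.63 ± 0.25, adjusted p = 0.244) and Mfap4 (0.66 ± 0.27, adjusted p = 0.266). With a compared library left out, the adventitial count of higher genes was 1 or 2 in each case. The alveolar count was 2 and 1 without library 1 or 2 of Axin2:Pdgfra, and 4 and 1 without library 1 or 2 of Axin2. The list medians moved less, 1.47 to 1.77 and 1.05 to 1.25 over the 10 fits. The call of Vegfd ended without either Axin2:Pdgfra library or Axin2 library 2, those of Serpinf1 and Spon1 without any of the 4 libraries compared or either Pdgfra library, and those of Scara5 and Scube2 without any of the 4 libraries compared, either Pdgfra library or Wnt2 library 1 (adjusted p up to 0.323). The call of Slc27a6 ended without any library other than those of Negative cells (adjusted p up to 0.266).

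**Figure D3:**
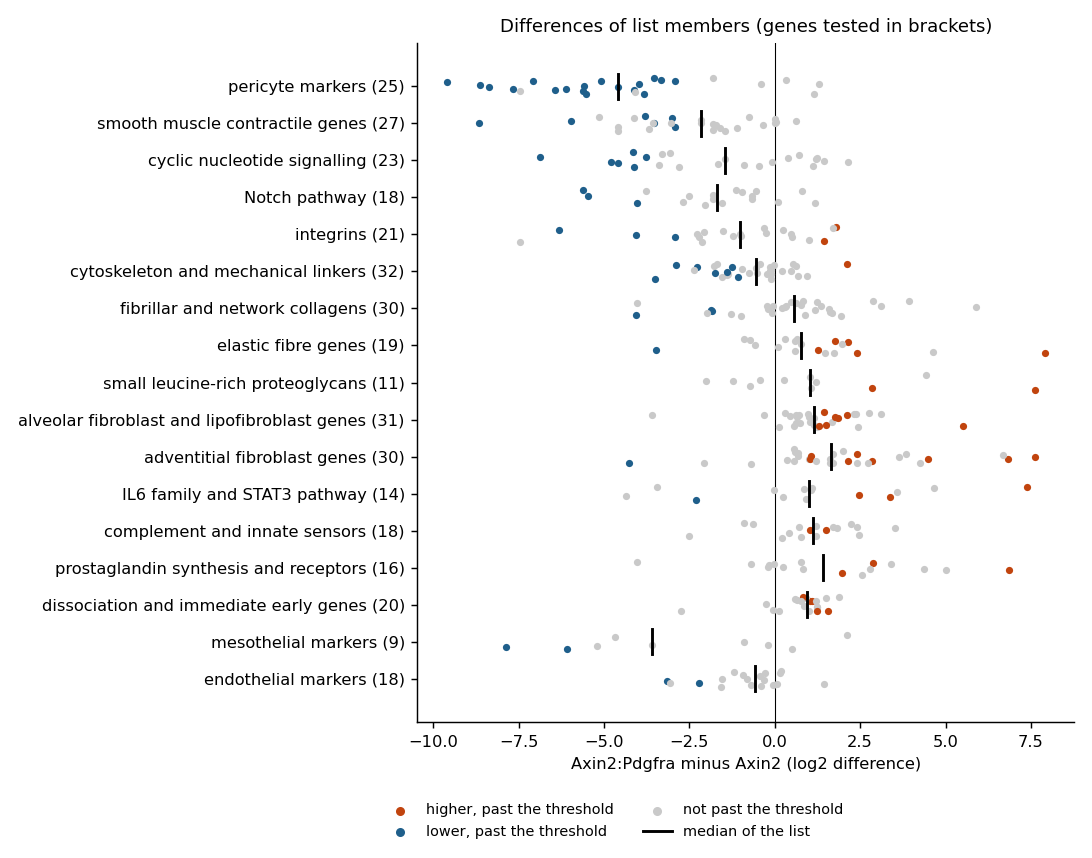
Difference between Axin2:Pdgfra and Axin2 cells (horizontal axis, log2, right of 0 means higher in Axin2:Pdgfra) for the tested members of 17 gene lists (rows). Points are genes, orange when called higher, blue when called lower and grey otherwise, and black bars are list medians, from -4.6 for pericyte markers to 1.65 for adventitial fibroblast genes, beside 0.02 over all genes.

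Signals made by fibroblasts, and the receptors for them, also differed. In the IL6 family 3 of 14 genes were higher and 1 lower (median 0.99). Il6, a cytokine that acts on epithelium and immune cells, had 9.99 and 9.89 in Axin2:Pdgfra libraries and 3.36 and 1.75 in Axin2 libraries, where library 2 was at the lowest value (adjusted p = 0.0226). Osmr, the receptor of oncostatin M, had 14.23 and 14 in Axin2:Pdgfra libraries, against 11.62 and 11.64 in Axin2 libraries (2.48 ± 0.35, adjusted p = 0.00203), and Il6ra, the Il6 receptor, had 11.27 and 11.23 in Axin2:Pdgfra libraries, against 6.91 and 8.87 in Axin2 libraries (3.36 ± 0.78, adjusted p = 0.039). The kinase Jak2, which passes on their signal, was lower, at 9.9 and 9.77 in Axin2:Pdgfra and 12.05 and 12.28 in Axin2 libraries (-2.32 ± 0.52, adjusted p = 0.0327), and Stat3 and the shared receptor Il6st did not pass (1.06 ± 0.4, adjusted p = 0.226 and 0.25 ± 0.25, adjusted p = 0.746). Il6, its receptor and Osmr were thus higher, and a kinase downstream of them was lower. Hhip, a decoy that takes up Hedgehog ligands, had 14.79 and 13.76 in Axin2:Pdgfra libraries and 10.28 and 8.64 in Axin2 libraries (4.81 ± 0.73, adjusted p = 0.00342). It was the only call among 13 Hedgehog genes (median 0.52), where the co-receptor Boc was at 2.24 ± 0.66 (adjusted p = 0.105). Osmr stayed past the threshold with any 1 of the 10 libraries left out (adjusted p up to 0.0384). The call of Hhip ended without Axin2 library 2, that of Il6 without any of the 4 libraries compared, and that of Jak2 without any of the 4 libraries compared or either Wnt2 library (adjusted p up to 0.233). The call of Il6ra ended without any library other than those of Negative cells (adjusted p up to 0.267).

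Both groups carried the Axin2 label, which marks past use of Axin2, and 1 gene of the Wnt lists below was called. Over all genes tested, 0.924% were called higher and 1.38% lower, and these lists are too short to be set against those shares. Of 16 canonical Wnt target genes 1 was higher and 0 lower (limma; 2 higher and 1 lower at unadjusted p under 0.05; median 0.14). That gene was Lgr5, a receptor for R-spondins, with 11.52 and 9.96 in Axin2:Pdgfra libraries and 3.96 and 1.75 in Axin2 libraries, where library 2 was at the lowest value (adjusted p = 0.0342). None of 11 Wnt ligand genes and none of 9 secreted antagonists passed (limma; 2 and 3 higher, 0 and 0 lower at unadjusted p under 0.05; medians 1.25 and 1.61). Wnt5a, a ligand of the non-canonical branch, was at 1.25 ± 0.58 (adjusted p = 0.357) with a 95% interval of -0.01 to 2.5. Among 19 FGF genes the receptor Fgfr3 was higher, at 12.72 and 12.85 in Axin2:Pdgfra and 9.79 and 10.21 in Axin2 libraries (2.78 ± 0.57, adjusted p = 0.0222), and among 28 BMP genes the secreted regulator Bmper was higher, at 12.68 and 13.53 in Axin2:Pdgfra and 10.75 and 10.44 in Axin2 libraries (2.52 ± 0.53, adjusted p = 0.0246). The EGF family had 2 lower genes of 12, Hbegf, a ligand, and Erbb3, a receptor also known from Schwann cells, at -5.35 ± 0.91 (adjusted p = 0.00653) and -4.97 ± 1.2 (adjusted p = 0.0471). Igfbp3, which binds insulin-like growth factors, was the only call of 15 genes of that axis (1.51 ± 0.31, adjusted p = 0.0227). The call of Hbegf ended without Axin2 library 2, that of Bmper without Axin2:Pdgfra library 2 or either Axin2 library, and those of Fgfr3 and Igfbp3 without any of the 4 libraries compared (adjusted p up to 0.206). The call of Lgr5 ended without any of the 4 libraries compared or either Pdgfra library, and that of Erbb3 without any of the 4 libraries compared, either Pdgfra library, Wnt2 library 1 or either Negative library (adjusted p up to 0.244).

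A few genes of lipid mediators and innate defence were higher. With a compared library left out, 0 to 1 of the prostaglandin genes, 0 to 1 of the complement and innate sensor genes and 0 to 3 of the lipid handling genes below were called. Of 16 prostaglandin genes 3 were higher and 0 lower (limma; 7 higher and 0 lower at unadjusted p under 0.05; median 1.41). Ptgs2, the inducible cyclooxygenase, had 11.06 and 10.89 in Axin2:Pdgfra libraries and 8.29 and 7.91 in Axin2 libraries (2.88 ± 0.7, adjusted p = 0.0471), and Ptgis, which makes prostacyclin, differed by 1.97 ± 0.44 (adjusted p = 0.0337). Alox12, a lipoxygenase, had 8.68 and 10.56 in Axin2:Pdgfra libraries and 3.8 and 1.75 in Axin2 libraries, the second at the lowest value (adjusted p = 0.0218). Of 18 complement and innate sensor genes 2 were higher and 0 lower (limma; 9 higher and 0 lower at unadjusted p under 0.05; median 1.12). C3, the central complement protein, had 17.04 and 17.04 in Axin2:Pdgfra libraries, against 16.22 and 15.8 in Axin2 libraries (1.03 ± 0.22, adjusted p = 0.0272). C7, a late complement component, did not pass (1.2 ± 0.35, adjusted p = 0.101). Of 36 lipid handling genes 4 were higher (median 0.63), among them Abca1, which exports cholesterol (1.98 ± 0.43, adjusted p = 0.0275), and Gpam, which starts triglyceride synthesis (2.15 ± 0.52, adjusted p = 0.0455). Abca8a, also higher (1.97 ± 0.29, adjusted p = 0.00279), has close copies, so its value is uncertain where reads could be split between them. The call of Abca8a ended without Axin2 library 2, that of Alox12 without Axin2:Pdgfra library 2 or Axin2 library 2, and that of Abca1 without either Axin2:Pdgfra library, Axin2 library 2 or either Pdgfra library (adjusted p up to 0.255). The call of C3 ended without any of the 4 libraries compared or either Pdgfra library, that of Gpam without either Axin2:Pdgfra library, Axin2 library 2, either Pdgfra library or either Wnt2 library, and those of Ptgs2 and Ptgis without any library other than those of Negative cells (adjusted p up to 0.356).

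Guidance and neural genes moved both ways, 4 higher and 4 lower of 38 semaphorin, plexin, ephrin, netrin and Slit genes (median -0.04) and 3 higher and 1 lower of 27 neural adhesion and signalling genes (median 0.04). The shares over all genes tested were 0.924% higher and 1.38% lower. Penk, which encodes the enkephalin precursor, stood at the floor of both Axin2 libraries and had 10.69 and 10.03 in Axin2:Pdgfra libraries (adjusted p = 0.0159). Lsamp, a neural cell adhesion molecule, likewise stood at the floor of both and had 8.68 and 9.64 in Axin2:Pdgfra libraries (adjusted p = 0.0391). Slit2, a ligand of Robo receptors, had 13.8 and 14.1 in Axin2:Pdgfra libraries, against 11.76 and 10.78 in Axin2 libraries (2.68 ± 0.44, adjusted p = 0.00533). Of the netrin receptors Unc5c was at 3.65 ± 0.52 (adjusted p = 0.0025) and Unc5b at -4.06 ± 0.83 (adjusted p = 0.021). Efnb2, an ephrin that mural cells use in vessel assembly, had 12.61 and 12.56 in Axin2:Pdgfra libraries, against 10.68 and 10.7 in Axin2 libraries (1.89 ± 0.47, adjusted p = 0.0498). Of 42 transcription factors of lung mesenchyme 1 was higher and 3 lower (median -0.36). This list is too short for 1 higher call to be set against the share over all genes. Zfhx3 had 10.6 and 11.29 in Axin2:Pdgfra libraries, against 13.81 and 13.76 in Axin2 libraries (-2.84 ± 0.45, adjusted p = 0.00477), and Tbx5, needed for lung and heart development, had 12.4 and 12.91 in Axin2:Pdgfra libraries, against 13.9 and 14.26 in Axin2 libraries (-1.43 ± 0.33, adjusted p = 0.039). None of 13 Hox genes passed (limma; 0 higher and 0 lower at unadjusted p under 0.05; median -0.29). The call of Unc5c ended without Axin2 library 2, that of Zfhx3 without either Axin2 library, and that of Slit2 without Axin2:Pdgfra library 2 or Axin2 library 2 (adjusted p up to 0.108). The call of Unc5b ended without either Axin2:Pdgfra library or Axin2 library 2, that of Penk without any of the 4 libraries compared, and those of Lsamp, Efnb2 and Tbx5 without any library other than those of Negative cells (adjusted p up to 0.291).

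Among the 20 largest differences in each direction, many Axin2:Pdgfra or Axin2 values lay at the floor. Emilin2, an elastic fibre protein, had 9.3 and 10.9 in Axin2:Pdgfra libraries, against 2.64 and 1.75 in Axin2 libraries, the second Axin2 value being the lowest (adjusted p = 0.0284). Gxylt2, which extends sugars on Notch receptors, had 9.73 and 11.81 in Axin2:Pdgfra libraries, against 3.13 and 1.75 in Axin2 libraries, again with the second Axin2 value the lowest (adjusted p = 0.033). Adcyap1r1, the receptor of the neuropeptide PACAP, had 11.12 and 12.66 in Axin2:Pdgfra libraries, against 3.13 and 6.8 in Axin2 libraries (6.93 ± 1.68, adjusted p = 0.0471). In the other direction Thsd4, a protein of microfibrils, had 3.85 and 6.12 in Axin2:Pdgfra libraries, against 12.52 and 12.51 in Axin2 libraries (-7.53 ± 1.28, adjusted p = 0.00654), and Mpp2, a membrane scaffold, had 3.36 and 7.64 in Axin2:Pdgfra libraries, against 12.59 and 13.63 in Axin2 libraries (-7.6 ± 1.31, adjusted p = 0.00675). Sox6, a transcription factor, Hamp, the iron hormone hepcidin, and Nmur1, a neuropeptide receptor, were at the lowest value in both Axin2:Pdgfra libraries and had 8.78 and 9.87, 10.42 and 9.15 and 10.04 and 9.91 in Axin2 libraries (adjusted p = 0.0498, 0.0415 and 0.0346). Over all called genes, 4 higher ones stood at the floor of both Axin2 libraries and 8 in 1 of them, while 10 lower ones were at the lowest value in both Axin2:Pdgfra libraries and 12 in 1. The calls of Thsd4 and Mpp2 ended without either Axin2 library, those of Gxylt2 and Nmur1 without any of the 4 libraries compared or Wnt2 library 2, and that of Emilin2 without any of the 4 libraries compared or Pdgfra library 2 (adjusted p up to 0.222). The call of Adcyap1r1 ended without any of the 4 libraries compared, either Pdgfra library or Wnt2 library 2, that of Hamp without any library other than those of Negative cells, and that of Sox6 without any of the 10 libraries (adjusted p up to 0.294).

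Pdgfra and Negative cells, which share no library with the comparison, were compared as cells with and without the Pdgfra label that lack the Axin2 label. The Negative libraries stood apart in markers of other cells. The mean of 5 erythroid genes was 8.12 and 6.82 in Pdgfra libraries, against 13.99 and 13.32 in Negative libraries (3 of 5 lower in Pdgfra, median -6.18). The mean of the epithelial list was 11.14 and 10.26 in Pdgfra libraries, against 12.35 and 12.41 in Negative libraries. The mean of 5 sex-linked genes, from the Xist locus and the Y chromosome, was 4.73 and 4.26 in Pdgfra libraries, against 4.98 in Negative library 0 and 9.82 in Negative library 2, so that these 2 libraries differed from each other. This mean joins Xist with Y genes. Of the 5 genes, 4 stood at the floor of each Pdgfra library and of Negative library 0, and 0 at that of Negative library 2. The part of these genes and cells in the comparison was not tested. In it 412 genes differed (2.91% of the genes tested), 288 higher (2.03%) and 124 lower (0.875%) in Pdgfra cells. Of the 131 genes with higher levels in Axin2:Pdgfra cells, 122 also had a positive difference in Pdgfra minus Negative (93.1%, beside 59.1% of all 7202 genes with a positive difference), and 68 passed the threshold there (51.9% of the 131 and 23.6% of the 288). Of the 195 lower genes, 181 had a negative difference (92.8%, beside 57.6% of all 6974 genes with a negative one), and 45 passed (23.1% of the 195 and 36.3% of the 124). No called gene was called in the opposite direction. Both differences were estimated in a single model, which shares its estimate of the spread between them.

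Single genes show how the pairs compare. Lum had 11.68 and 13.92 in Pdgfra libraries and 3.85 and 2.67 in Negative libraries, the second at the lowest value, so that both groups with the Pdgfra label stood above both groups without it. Osmr had 13.63 and 14.01 in Pdgfra libraries and 11.68 and 11.08 in Negative libraries (2.44 ± 0.35, adjusted p = 0.00205), close to its difference of 2.48 ± 0.35 between Axin2:Pdgfra and Axin2 cells. Pdgfrb had 12.59 and 12.53 in Pdgfra libraries and 15.49 and 15.02 in Negative libraries (-2.7 ± 0.31, adjusted p = 0.000546). For Postn the values were 12.52 and 12.56 in Pdgfra and 15.92 and 14.68 in Negative libraries, a difference of -2.76 ± 0.4 (adjusted p = 0.00273), against -5.58 ± 0.4 with the Axin2 label. Pcdh1 and Cacna1c, lower in Axin2:Pdgfra cells, were at -0.93 ± 0.36 (adjusted p = 0.192) and 1.03 ± 0.39 (adjusted p = 0.191) in Pdgfra minus Negative.

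The test of the difference between the 2 differences called 0 genes (limma; 1296 of 14177 at unadjusted p under 0.05, 9.14%), with a lowest adjusted p of 0.237. Without Negative library 0 it called 42, 1 higher and 41 lower. The term was -2.82 ± 0.57 for Postn (adjusted p = 0.237), -2.96 ± 0.51 for Pcdh1 (adjusted p = 0.237) and -2.82 ± 0.56 for Cacna1c (adjusted p = 0.237). No gene is therefore called particular to the cells with the Axin2 label. In Wnt2 cells, from the other mouse line, Pdgfrb had 10.86 and 10.94, Postn 11.85 and 11.73, Lum 6.38 and 7.35 and Osmr 13.55 and 13.9. The mean of the sex-linked genes was 8.76 and 10.41 in Wnt2 libraries, with 0 of 5 at the floor of either. It was 5.25 and 5.14 in Axin2:Pdgfra libraries, with 2 and 4 genes at the floor. In Axin2 libraries it was 5.1 and 4.73, with 3 and 4 at the floor. The part of the sex-linked genes in the values was not tested.

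**Figure D4:**
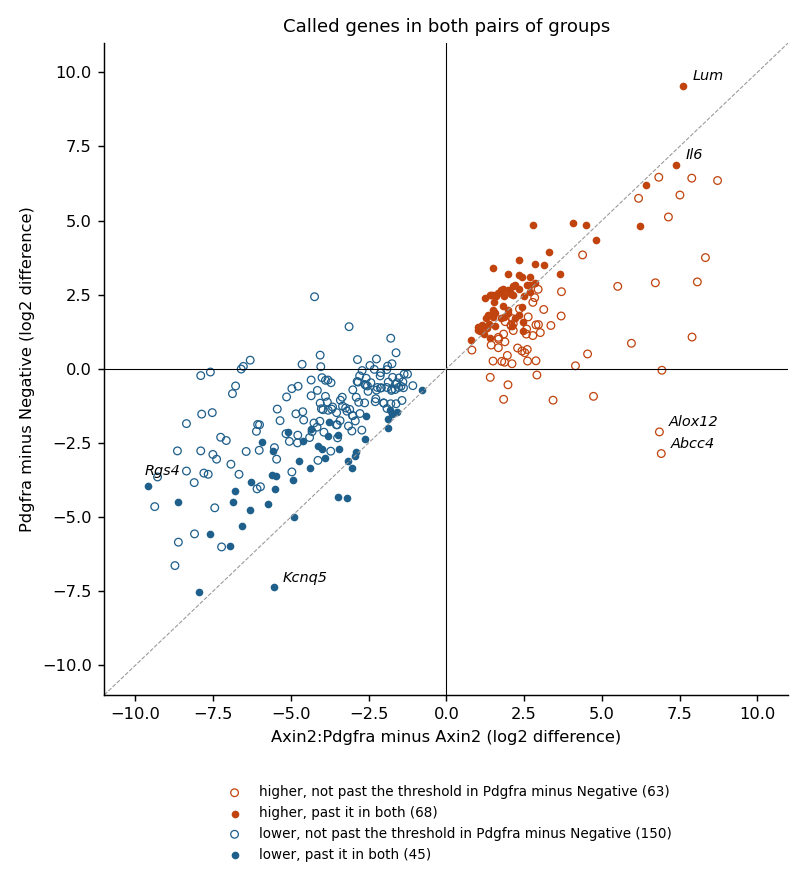
Difference with the Pdgfra label in cells without the Axin2 label (vertical axis, Pdgfra minus Negative, log2) against that in cells with it (horizontal axis, Axin2:Pdgfra minus Axin2, log2) for the 326 called genes. Filled points passed the threshold in both pairs (68 higher, 45 lower), open points in Axin2:Pdgfra minus Axin2 alone, and the dashed line marks equal differences.

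Markers of cells other than fibroblasts and mural cells were present in both groups. Pecam1, a junction protein of endothelium, had 10.92 and 11.47 in Axin2:Pdgfra libraries and 12.53 and 11.7 in Axin2 libraries, without passing (-0.92 ± 0.51, adjusted p = 0.463). The surfactant gene Sftpc of alveolar epithelium had 13.73 and 13.31 in Axin2:Pdgfra libraries, against 14.25 and 13.59 in Axin2 libraries, and the test did not pass (-0.4 ± 0.36, adjusted p = 0.711). Of 18 endothelial markers 2 were lower, Eng and Esam, both of which mural cells can also express (-2.22 ± 0.36, adjusted p = 0.00533 and -3.15 ± 0.76, adjusted p = 0.0471; median -0.57), and the mean of the list was 10.1 and 9.35 in Axin2:Pdgfra libraries, against 10.91 and 10.19 in Axin2 libraries. Of 9 mesothelial markers 2 were lower (median -3.59), and their mean level was 7.56 and 7.18 in Axin2:Pdgfra libraries, against 10.29 and 10.21 in Axin2 libraries. Upk3b, a uroplakin of mesothelium, had 2.7 and 4.74 in Axin2:Pdgfra libraries and 11.15 and 12.02 in Axin2 libraries (-7.87 ± 1.76, adjusted p = 0.0334), while Gpm6a, the other call, had 1 Axin2:Pdgfra library at the lowest value. None of 19 epithelial and none of 17 immune markers passed (limma; 4 and 3 lower, 0 and 0 higher at unadjusted p under 0.05; medians -0.44 and -0.98). The mean level of the immune list was 5.07 and 5.69 in Axin2:Pdgfra libraries, with 8 and 7 of 17 markers at the floor, against 7.21 and 5.87 in Axin2 libraries, with 2 and 5 at the floor. The mean of the epithelial list was 9.03 and 9.07 in Axin2:Pdgfra libraries, against 10.13 and 9.26 in Axin2 libraries. Of 8 Schwann cell markers 1 was lower, Erbb3, and 1 higher, Scn7a (limma; 3 lower and 1 higher at unadjusted p under 0.05; median -1.98, 6 of 8 negative). The mean of that list was 6.82 and 7.05 in Axin2:Pdgfra libraries, against 8.51 and 9.35 in Axin2 libraries. The mean of the erythroid genes was 6.23 and 6.81 in Axin2:Pdgfra libraries, against 5.53 and 5.07 in Axin2 libraries. The part of these cells in the results above was not tested.

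Immediate early genes, known to respond when tissue is dissociated, were higher: 5 of 20, with 0 lower (limma; 12 higher and 0 lower at unadjusted p under 0.05; median 0.95). With a compared library left out, 2 and 1 were called without library 1 or 2 of Axin2:Pdgfra, and 0 and 1 without library 1 or 2 of Axin2. Zfp36, whose protein destabilises cytokine messages, had 15.68 and 15.43 in Axin2:Pdgfra libraries and 13.76 and 14.22 in Axin2 libraries (1.56 ± 0.24, adjusted p = 0.004), and Egr1, Fos, Nr4a1 and Dusp1 differed by 1.08, 1.03, 1.24 and 0.82. The mean of the list was 13.55 and 13.46 in Axin2:Pdgfra libraries, against 12.86 and 12.69 in Axin2 libraries, and its part in the results, Il6 and Ptgs2 among them, was not tested. The call of Eng ended without Axin2 library 2, that of Zfp36 without Axin2 library 1, and that of Egr1 without Axin2:Pdgfra library 2 or either Axin2 library (adjusted p up to 0.124). The call of Esam ended without Axin2:Pdgfra library 2, either Axin2 library or either Wnt2 library, that of Upk3b without any of the 4 libraries compared, and that of Gpm6a without Axin2:Pdgfra library 1, either Axin2 library, Pdgfra library 1 or either Wnt2 library (adjusted p up to 0.28). The call of Dusp1 ended without any of the 4 libraries compared or either Pdgfra library, that of Fos without any of the 4 libraries compared, either Pdgfra library or Wnt2 library 2, and that of Nr4a1 without any library other than those of Negative cells (adjusted p up to 0.342).

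The 27 genes called with any library left out rest on no single library of the study. The 6 higher ones were A730049H05Rik, Cacna1d, Fat3, Osmr, Mrc2 and Macf1. A730049H05Rik stood at the floor of both Axin2 libraries and had 9.14 and 10.29 in Axin2:Pdgfra libraries. It overlaps Adamts9 on the other strand, and the sources used here do not say whether strand was used in counting, so reads of the 2 genes may not be told apart. The 21 lower ones include Pdgfrb, Notch3, Mcam, Cspg4, Rgs4, Pdzd2, Postn, Gucy1a1, Gucy1b1, Pde5a, Adcy8, Actc1, Pcdh1, Pcdh18, Sdc3 and Itga1, all described above. Sema6d, a semaphorin, had 9.11 and 9.57 in Axin2:Pdgfra libraries and 12.84 and 13.21 in Axin2 libraries (-3.69 ± 0.45, adjusted p = 0.000827). Clstn2, a calsyntenin best known from synapses, had 3.62 and 4.74 in Axin2:Pdgfra libraries and 12.67 and 12.98 in Axin2 libraries (-8.64 ± 1.04, adjusted p = 0.000679). The remaining 3 are Lipg, Epas1 and Il18r1, which belong to no list used here.

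**Figure D5:**
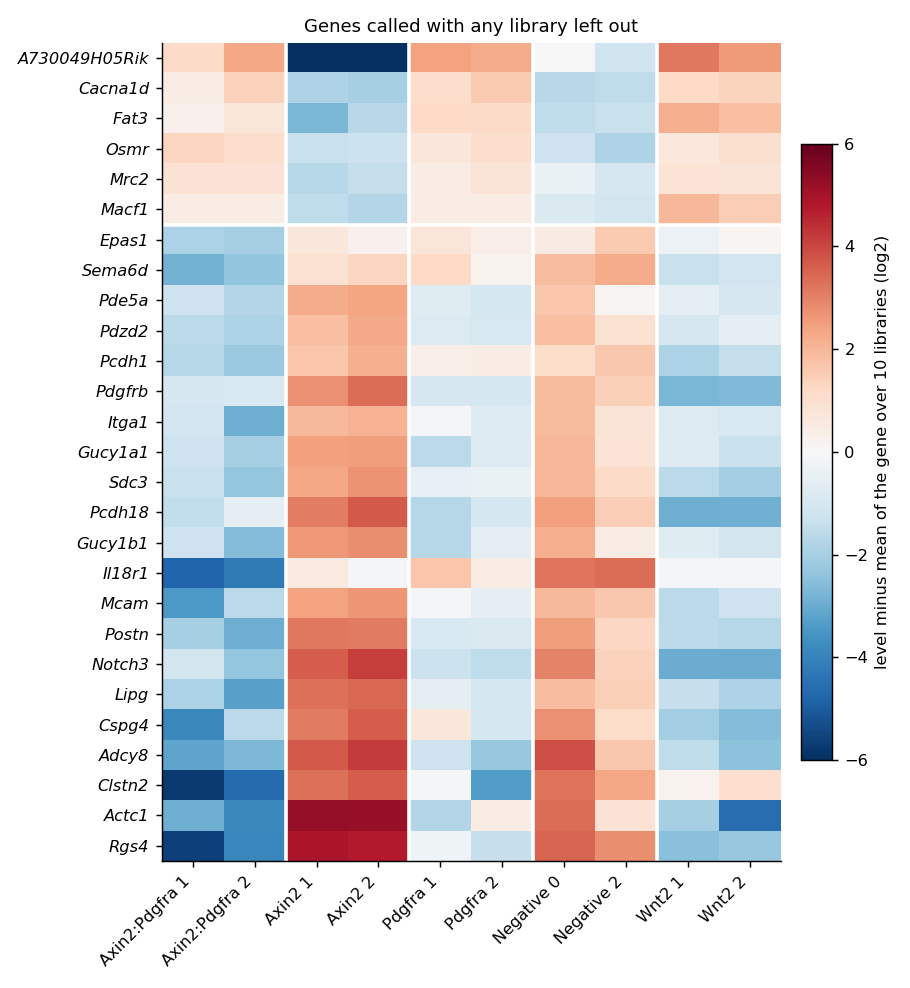
Level of each gene minus its mean over the 10 libraries (colour, log2, red above and blue below, with colours ending at -6 and 6) for the 27 genes (rows) called with any library left out, in each library (columns, grouped by cells). The 6 genes in the upper block are higher in the Axin2:Pdgfra libraries than in the Axin2 libraries, and the 21 in the lower block are lower.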

How the data were processed

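RNA of FACS-sorted lung mesenchyme was sequenced in 10 libraries, 2 in each of 5 groups. STAR, limma and the mouse build mm9 are named in the submitters' processing notes, with no versions, roles or order. The deposited files hold 1 log2 value per gene and library, made by the authors, and the 10 libraries have near-identical distributions, as after quantile normalization. The log2 scale was inferred from the values. No counts were used here, so depth and its precision are unknown. Whether strand was used in counting is not given in the sources used here, so overlapping genes (176 of the 326 called genes overlap another gene in GENCODE M21, 137 on the other strand) and near-identical copies are uncertain.

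Symbols were matched to 14720 of 14854 gene identifiers. Genes with a log2 value of 6 or more in at least 2 of 10 libraries were kept. limma 3.58.1 (R 4.3.3) was fitted to all 5 groups with trended and robust moderation, two-sided, with Benjamini-Hochberg adjustment over 14177 genes and a threshold of 0.05; the 2 libraries of each group left 5 residual degrees of freedom. The same fit gave Pdgfra minus Negative and the interaction. The fit was checked on simulated data. Tables and figures used Python 3.11.15, pandas 2.3.3, numpy 2.4.6 and matplotlib 3.10.9. Promoters came from RefSeq tables of GRCm38.p6, not from mm9, so they were matched by gene symbol only.

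The genes compared, the gene lists and the tests were chosen with earlier results of these data known. Genes are named where they belong to the PDGF family, are among the 20 largest called differences in each direction, are called members of a list, are among its members with the highest mean level, or pass the interaction test; some uncalled list members, and Lipg, Epas1, Il18r1 and Mrc2, which belong to no list, were named after their values were seen. Alternatives were the 4 compared libraries alone, no Wnt2 libraries, no trended or robust moderation, library weights, other filters, a raised floor, cyclic loess, the second sequencing index and the replicate number as a term, and leaving out each library. Some called genes are not reported here.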

Additional observations from a re-analysis of the deposited data

How the results depend on the processing

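Over the 20 alternatives, 809 of 3000 results of the 150 called genes that the rule names lost the threshold. No direction was reversed in them. The groups of a called gene never overlapped, so leaving out a library could not have reversed a direction. Of all 326 called genes, 15 passed in every alternative, all of them lower in Axin2:Pdgfra cells. No gene called higher did so. With each library left out in turn, 35 to 473 genes were called, 13 to 233 higher and 22 to 240 lower, and the interaction called 0 to 42, 0 to 1 higher and 0 to 41 lower. The fit to the 4 compared libraries alone called 156 genes, 53 higher and 103 lower. Without trended and robust moderation 95 were called, 26 higher and 69 lower. The higher count was 82 without the Wnt2 libraries and 87 with the second sequencing index as a term. Cyclic loess, library weights, no filter, a filter of 8 and a floor of 6 gave 304 to 343 genes. Among genes that missed the threshold, Abcc9 changed sign, ranging over -0.32 to 0.95 with a library left out, and so did Axin2, over -1.48 to 1.02. Deviations of same-numbered libraries from their group means correlated at -0.061 to 0.028 over genes in the groups other than Negative. These correlations cannot tell whether same-numbered libraries share an animal or a sort. With the replicate number as a block 396 genes were called, 175 higher and 221 lower. The cause of these shifts was not tested. With 2 libraries a group and no counts, the depth behind a value is unknown, and values near the floor limit what can be said of low genes.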

Other observations

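Of the 27 genes called with any library left out, 4 with no place in the gene lists were described after their values were seen. Lipg, an endothelial-type lipase that cleaves phospholipids of lipoproteins, had 9.01 and 7.67 in Axin2:Pdgfra libraries, against 14.21 and 14.36 in Axin2 libraries (-5.94 ± 0.58, adjusted p = 0.000119). In the other groups Lipg had 10.35 and 9.84 in Pdgfra, 12.75 and 12.36 in Negative and 9.54 and 9.04 in Wnt2 libraries. Epas1, the hypoxia-inducible factor HIF-2 alpha, had 13.27 and 13.18 in Axin2:Pdgfra libraries, against 15.85 and 15.45 in Axin2 libraries (-2.43 ± 0.31, adjusted p = 0.0012). Its difference in Pdgfra minus Negative was -0.47 ± 0.31 (adjusted p = 0.465). Il18r1, a receptor chain for interleukin-18, had 5.5 and 6.01 in Axin2:Pdgfra libraries, against 10.87 and 10.21 in Axin2 libraries (-4.78 ± 0.66, adjusted p = 0.00198). Mrc2, which takes up collagen fragments for degradation, was higher and had 14.65 and 14.64 in Axin2:Pdgfra libraries, against 12.07 and 12.32 in Axin2 libraries (2.45 ± 0.29, adjusted p = 0.000669). None of the 4 overlapped between the groups, which holds for every called gene. Lipg, Epas1, Il18r1 and Mrc2 were taken from the genes that stayed past the threshold with any 1 of the 10 libraries left out (adjusted p up to 0.0326).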
